A study of Mus musculus with 12 samples.

Results

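Claudins are small membrane proteins with 4 transmembrane spans that join neighbouring epithelial or endothelial cells at the tight junction. Some of them seal the space between cells, and others form pores that let chosen ions or water pass. In the kidney each segment of the nephron carries its own set, and this set decides whether the segment reabsorbs or retains ions between its cells. In the heart the lining of the blood vessels is the best known place of a claudin, Cldn5.

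The 10 claudin genes described here are Cldn1, Cldn2, Cldn3, Cldn4, Cldn5, Cldn7, Cldn8, Cldn10, Cldn16 and Cldn19. They were found by symbol in the platform annotation, and the list was drawn up with earlier results of these data known. They were read in hearts and kidneys of 12-month-old mice on a C57BL/6 background, either wildtype (WT) or PAI-1 knockout (KO). The knockout is global, so every cell type of an animal carries it. RNA was measured on 12 Illumina mouse bead arrays, 3 in each of 4 groups. These are wildtype hearts (WT/HT) and kidneys (WT/KID) and knockout hearts (KO/HT) and kidneys (KO/KID). Per the methods part of each organ was fixed for histology, and RNA came from the frozen remainder, with no sorting of cells. The study compared genotypes within each organ and organs within each genotype to ask why fibrosis in aged PAI-1 knockout mice is selective for the heart. A probe was kept where its detection p-value was under 0.01 in at least 1 array. This left 9 of the 10 claudin genes out of 11244 genes with a kept value, and 14 of their 17 probes out of 19780 kept probes. All levels are log2 values of quantile normalized signal, and where a gene had several kept probes the brightest stands for it. In RNA of unsorted tissue, fewer cells of a type and less RNA per cell cannot be told apart.

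From 14281 to 16080 probes were detected per array. The organs matched their labels: the 7 kept cardiomyocyte genes had a median level of 14.31 to 14.56 in the hearts and 6.45 to 6.52 in the kidneys. Transcripts of the sex chromosomes did not follow the replicate numbers. Xist, the RNA that silences an X chromosome in female cells, passed detection on the 3 WT/HT arrays, on KO/HT replicates 2 and 3 and on 0 kidney arrays. Eif2s3y, a gene of the Y chromosome, was detected in all 6 kidneys and in KO/HT replicate 1 alone among the hearts. Organ and sex therefore cannot be told apart in the wildtype mice. They are largely confounded in the knockout mice too, where only KO/HT replicate 1 shared the pattern of the kidneys. Most hearts and kidneys with the same number thus did not carry the same sex transcripts. The knockout hearts were the least alike: across kept probes, which are not independent replicates, KO/HT replicate 3 correlated with the other KO/HT arrays at r = 0.986 and 0.988, while arrays of the other 3 groups correlated within their group at 0.993 to 0.996. Results that rest on KO/HT replicates 1 and 3 are given with and without them. The methods name 3 mice of each genotype as the source of hearts and kidneys, while the sample titles give replicate numbers and name no mouse. Within a group the 3 arrays are taken as 3 animals, so the p-values measure the spread between animals together with that between arrays. All wildtype hearts carried Xist and no detected Eif2s3y, and all wildtype kidneys the reverse. By these transcripts no wildtype heart and kidney came from 1 mouse. Among the knockout hearts only replicate 1 could share a mouse with a kidney, and with which one is not known.

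Promoters of 3 members are printed because the results turn on them: Cldn2 and Cldn10 had the largest differences between organs, and Cldn5 alone was higher in the hearts. Each window runs from 250 bases before to 50 bases after an annotated start in RefSeq, build GRCm38.p6. Cldn10 has a pair of starts, 67079 bases apart, and both are given. Capitals mark exact matches, on either strand, to 6 short motifs. These were the HNF1-type motif GTTAAT, the core of the TATA box written as TATAAA, the box named for its letters CCAAT, the GC box with the letters GGGCGG, the E-box of Snail and Zeb factors with the letters CAGGTG, and the AP-1 motif with the letters TGACTCA. No base lay in more than 1 match.
Cldn2, chrX:139800558-139800857, plus strand: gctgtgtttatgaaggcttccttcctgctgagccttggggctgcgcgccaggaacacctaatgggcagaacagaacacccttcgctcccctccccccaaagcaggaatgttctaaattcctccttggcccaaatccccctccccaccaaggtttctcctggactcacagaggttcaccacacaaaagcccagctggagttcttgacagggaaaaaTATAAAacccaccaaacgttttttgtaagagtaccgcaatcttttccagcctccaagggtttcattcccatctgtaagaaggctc
Cldn10, first start, chr14:118787621-118787920, plus strand: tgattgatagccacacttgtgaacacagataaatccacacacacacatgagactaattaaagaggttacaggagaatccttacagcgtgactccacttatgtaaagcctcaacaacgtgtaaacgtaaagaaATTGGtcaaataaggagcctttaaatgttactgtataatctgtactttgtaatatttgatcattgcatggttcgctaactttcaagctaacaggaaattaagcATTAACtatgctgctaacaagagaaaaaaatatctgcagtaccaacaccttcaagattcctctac
Cldn10, later start, chr14:118854700-118854999, plus strand: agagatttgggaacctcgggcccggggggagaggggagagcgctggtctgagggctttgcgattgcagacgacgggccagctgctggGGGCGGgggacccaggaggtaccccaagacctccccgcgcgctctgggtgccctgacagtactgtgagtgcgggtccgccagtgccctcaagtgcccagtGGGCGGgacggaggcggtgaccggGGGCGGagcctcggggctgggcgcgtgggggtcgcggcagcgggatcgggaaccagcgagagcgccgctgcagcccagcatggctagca
Cldn5, chr16:18776597-18776896, plus strand: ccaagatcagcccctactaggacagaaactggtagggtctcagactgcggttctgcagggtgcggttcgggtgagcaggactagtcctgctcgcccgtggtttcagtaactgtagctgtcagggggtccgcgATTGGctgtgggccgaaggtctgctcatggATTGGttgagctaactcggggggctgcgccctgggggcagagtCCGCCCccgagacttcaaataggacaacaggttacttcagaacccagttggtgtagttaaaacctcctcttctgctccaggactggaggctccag

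The Cldn2 window held 1 TATA box, which begins at position -35 from the start, and no other of the 6 motifs. TATAAA occurred in 13.6% of all 32851 windows of the same length, and Cldn2 was the only claudin among those described whose window held it. The Cldn10 windows were unlike each other. The first was 36% G and C and held an HNF1-type motif at position -15 and a CCAAT box at position -118, both on the minus strand. The later one was 72% G and C and held 3 GC boxes, at positions -163, -63 and -39. The HNF1-type motif occurred in 7.1% of all windows and, among the 12 windows of the 9 claudin genes with one, in those of Cldn1 and Cldn10. The Cldn5 window held 2 CCAAT boxes on the minus strand, at positions -118 and -88, and 1 GC box at position -45. CCAAT boxes occurred in 37.4% and GC boxes in 35.7% of all windows, and 8 of the 12 claudin windows had a GC box. The E-box was present in windows of Cldn3, Cldn4 and Cldn7 against 20.2% of all windows, and the AP-1 motif in that of Cldn4 alone against 5.2%. These matches describe the letters of the windows and do not show binding.

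The largest differences lay between the organs. In wildtype mice 8 of the 9 kept claudin genes were lower in the hearts than in the kidneys and 1, Cldn5, was higher, by limma with Benjamini-Hochberg adjustment at an adjusted p under 0.05. Over all kept probes 31.4% were lower and 35.9% higher in the hearts, so a call was common on these arrays. In knockout mice 8 claudin genes were again lower and Cldn5 higher, where 30.2% of all probes were lower and 34.9% higher. Cldn1, Cldn2, Cldn3, Cldn4, Cldn16 and Cldn19 were detected in no heart and passed the detection filter through the kidneys alone. Their direction between organs was thus largely set by the filter, and their calls restate that the hearts lacked detection. The median difference of the 9 genes was -1.50 log2 in wildtype and -1.38 log2 in knockout mice, against 0.01 and 0.02 log2 over all genes. These medians are of fitted differences, in which an undetected heart stands at its background signal. All 14 claudin probes had heart and kidney groups that did not overlap, in both genotypes. The share of all kept probes without overlap was not computed, so nothing is read from this count. For most of the 14 it set detected kidneys against undetected hearts. Direction and side of the threshold were kept for all 9 genes in the 11 processing alternatives tried and with each array left out, while the sizes moved with the scale.

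**Figure D1:**
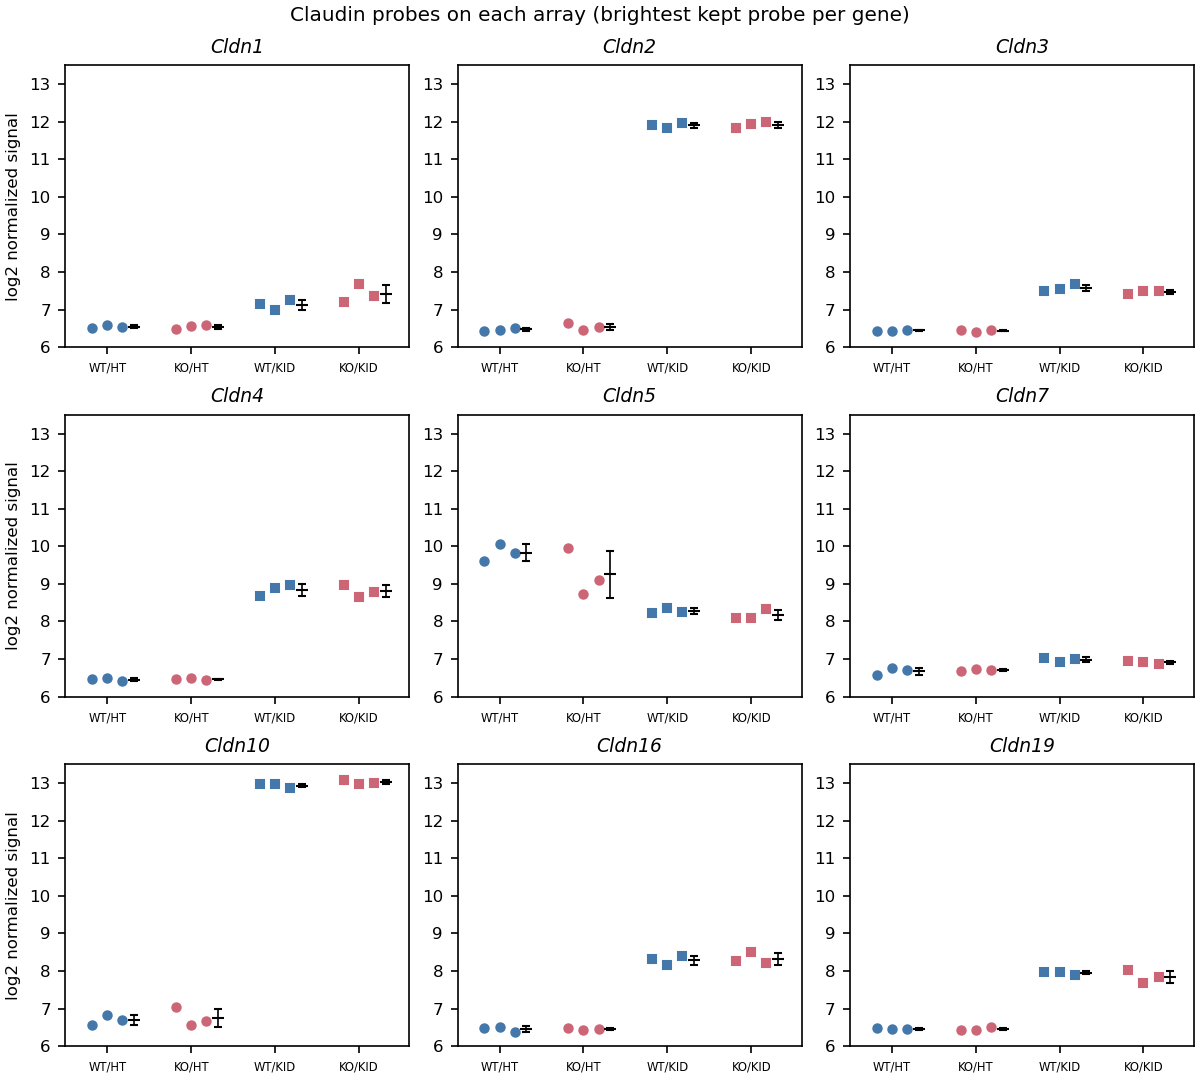
Level of the 9 kept claudin genes on each array, as log2 quantile normalized signal of the brightest kept probe. Circles are hearts, squares kidneys, blue wildtype, red PAI-1 knockout, left to right replicates 1 to 3, and the black mark is the group mean with its SD (n = 3). Cldn5 is the one panel in which the hearts lie above the kidneys.

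Cldn2, which forms a pore for sodium and water in the leaky proximal tubule, stood at 6.44, 6.47 and 6.52 in WT/HT and at 6.63, 6.46 and 6.54 in KO/HT. In the kidneys it reached 11.92, 11.82 and 11.96 in WT/KID and 11.84, 11.94 and 11.99 in KO/KID. No heart signal of this probe was above the detection limit, and the 6 kidneys lay close together. The fitted difference between hearts and kidneys was -5.42 ± 0.06 log2 (SE) in wildtype (adjusted p = 2.2e-15) and -5.38 ± 0.06 log2 in knockout mice (adjusted p = 2.2e-15). Because the hearts gave only a limit, the fold is a lower bound, taken here and below against the lowest signal among detected probes of each array or the probe's own, whichever is higher. Cldn2 was at least 36.4-fold higher in wildtype and at least 37.5-fold higher in knockout kidneys. A second probe gave the same direction, at least 16.8-fold and 21.3-fold. The bounds were not tested, and they hold on the scale used here only. On the authors' normalized values the Cldn2 difference was -4.50 log2 in wildtype and -4.49 log2 in knockout mice, and with the neqc background correction it was -7.59 and -7.44 log2. For every claudin probe with a bound, the difference on the authors' values was smaller than that bound.

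Cldn10 codes for a cation pore of the thick ascending limb and, from another first exon, for an anion pore of the proximal tubule. Its brightest probe read 6.57, 6.84 and 6.70 in WT/HT, 7.03, 6.57 and 6.68 in KO/HT, 12.96, 12.96 and 12.88 in WT/KID, and 13.08, 12.98 and 13.01 in KO/KID. Only 1 array of each heart group detected it. The difference between hearts and kidneys was -6.23 ± 0.10 log2 in wildtype (adjusted p = 4.1e-14) and -6.26 ± 0.10 log2 in knockout mice (adjusted p = 3.9e-14). Most heart signals in these means lie at the background. Averaged over the kept probes of the gene, the differences were -3.98 and -4.19 log2. The platform names 4 kept Cldn10 probes, of which probes 1 and 4 are annotated to one RefSeq transcript and probes 2 and 3 to another. All 4 were lower in the hearts. Probes 2, 3 and 4 went undetected in the wildtype hearts and were at least 45.3-fold, 3.69-fold and 3.22-fold higher in the wildtype kidneys. Another probe, annotated to a cDNA clone, was not detected on any array. No order of the isoforms was read from these probes.

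Cldn16 and Cldn19 form a joint pore in the thick ascending limb, where calcium and magnesium are reabsorbed between the cells, and in people the loss of either causes wasting of magnesium. Cldn16 read 8.32, 8.16 and 8.39 in WT/KID and 8.26, 8.49 and 8.20 in KO/KID, and lay between 6.38 and 6.52 in the 6 hearts, undetected in each. It was at least 2.98-fold higher in wildtype kidneys and at least 3.09-fold higher in knockout kidneys. The fitted differences, with hearts at background, were -1.83 and -1.87 log2 (adjusted p = 6.1e-10 and 5.1e-10, limma). On the authors' values the differences were -1.14 and -1.17 log2. Cldn19 read 7.97, 7.98 and 7.91 in WT/KID and 8.01, 7.67 and 7.83 in KO/KID, and was undetected in the hearts, between 6.44 and 6.50. It was at least 2.36-fold and at least 2.22-fold higher in the kidneys of the respective genotypes. Its fitted differences were -1.50 and -1.38 log2 (adjusted p = 1.5e-09 and 3.3e-09, limma). Both genes of the joint pore were thus seen in each of the 6 kidneys, and neither was seen in a heart. The second Cldn19 probe was dimmer, with bounds of 1.48-fold and 1.38-fold. The 6 kept marker genes of the thick limb were all lower in the wildtype hearts, with a median of -4.36 log2. Their median level in WT/HT was 6.46 to 6.62, below the lowest detected signal of those arrays. For at least part of them the filter thus largely set the direction, and nothing about the claudins is read from it.

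Cldn3, Cldn4, Cldn7 and Cldn8 are barrier or chloride-selective claudins of the distal nephron and the collecting duct. Cldn4 read 8.67, 8.89 and 8.97 in WT/KID and 8.97, 8.65 and 8.78 in KO/KID, while the hearts lay between 6.41 and 6.49 without detection. The bounds were at least 4.38-fold in wildtype and at least 4.32-fold in knockout mice. Fitted differences were -2.39 and -2.34 log2 (adjusted p = 8.5e-11 and 1.1e-10, limma). On the authors' values the differences were -1.59 and -1.55 log2. Cldn3 read 7.50, 7.56 and 7.67 in WT/KID and 7.41, 7.49 and 7.51 in KO/KID, again with no detected heart. It was at least 1.82-fold and at least 1.72-fold higher in the kidneys. Its fitted differences were -1.13 and -1.03 log2 (adjusted p = 1.2e-09 and 3.2e-09, limma). Cldn7 was the claudin with the smallest gap: 6.91 to 7.03 in WT/KID and 6.94, 6.93 and 6.87 in KO/KID, against 6.57, 6.76 and 6.70 in WT/HT and 6.68, 6.74 and 6.72 in KO/HT. It was detected in 1 WT/HT and 2 KO/HT arrays, and all 12 values lay near the detection limit. The difference was -0.31 ± 0.06 log2 in wildtype (adjusted p = 0.00053) and -0.20 ± 0.06 log2 in knockout mice (adjusted p = 0.011). On the authors' values these were -0.16 and -0.11 log2. Without KO/HT replicates 1 and 3, which leaves 1 knockout heart assumed to vary like the other groups, the knockout difference was -0.17 log2 and did not pass (adjusted p = 0.12). Both Cldn8 probes went undetected on every array, kidneys included. The 12 kept marker genes of the collecting duct had a median level of 9.19 to 9.37 in WT/KID. Of these, 11 were lower in the wildtype hearts, a direction that the filter largely set where a heart signal lay at background. Cldn8 was thus not detectable with these probes, which does not show that it is absent.

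Cldn1, a barrier claudin known in the kidney from the parietal cells of Bowman's capsule, read 7.15, 6.99 and 7.25 in WT/KID and 7.21, 7.69 and 7.37 in KO/KID. The hearts lay between 6.48 and 6.58 and none was detected. It was at least 1.34-fold higher in wildtype kidneys and at least 1.66-fold higher in knockout kidneys. The fitted differences, with hearts at background, were -0.59 and -0.88 log2 (adjusted p = 0.00029 and 8.7e-06, limma).

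Cldn5, the main claudin of endothelial cells, was the one member that was higher in the hearts and was detected on all 12 arrays. It read 9.61, 10.06 and 9.83 in WT/HT, 9.95, 8.72 and 9.12 in KO/HT, 8.23, 8.36 and 8.25 in WT/KID, and 8.10, 8.10 and 8.33 in KO/KID. Hearts and kidneys did not overlap in either genotype, and the lowest heart, KO/HT replicate 2, came closest to the kidneys. The difference was 1.55 ± 0.23 log2, or 2.93-fold, in wildtype (adjusted p = 6.8e-05) and 1.08 ± 0.23 log2, or 2.12-fold, in knockout mice (adjusted p = 0.0012). Other endothelial genes went the same way. Against 35.9% of all kept probes, 12 of 13 kept endothelial markers were higher in the wildtype hearts, with a median of 1.03 log2. Their part in the Cldn5 difference was not tested. In knockout mice the Cldn5 difference was 0.74 log2 without KO/HT replicate 1 (adjusted p = 0.00062) and 0.54 log2 without KO/HT replicates 1 and 3 (adjusted p = 0.0091), where 1 heart remains and its spread is taken from the other groups. With arrays only centred on their medians it was 0.52 log2 (adjusted p = 0.041), on a scale where the median of all kept probes moved by -0.14 log2.

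**Figure D2:**
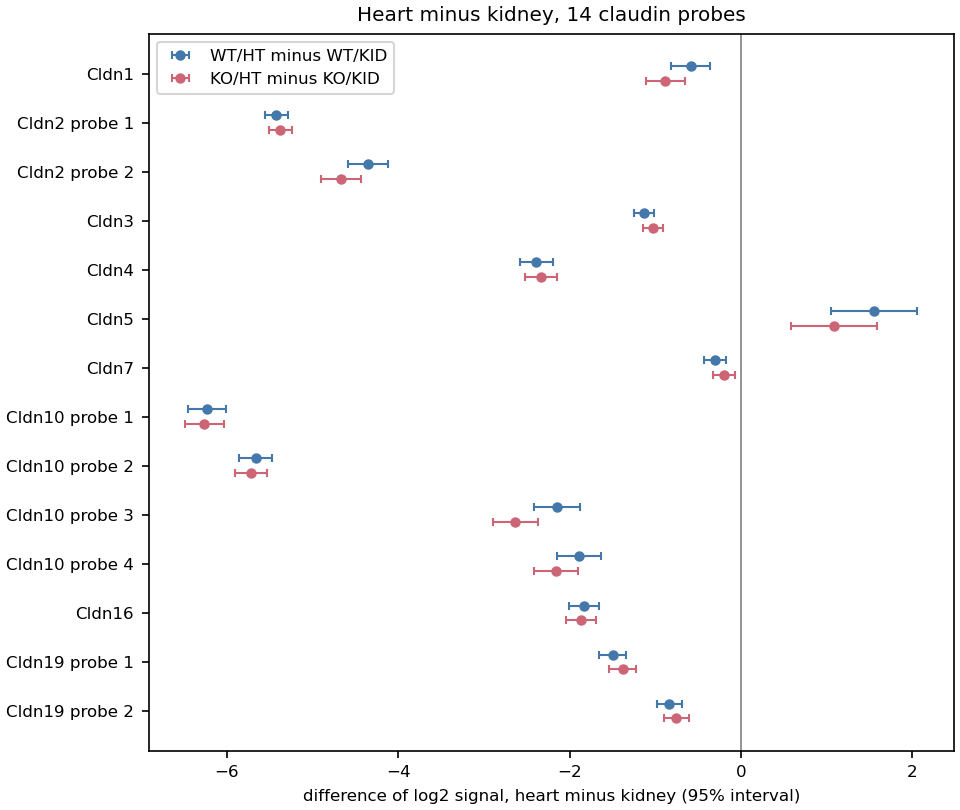
Difference of log2 signal between hearts and kidneys with its 95% interval for the 14 kept claudin probes, in wildtype (blue) and PAI-1 knockout (red) mice. Probes of 1 gene are numbered from the brightest; Cldn5 lies right of 0 at 1.55 and 1.08, and every other probe lies left of it.

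Between genotypes within the hearts, 0 of the 9 claudin genes passed, and 1, Cldn5, had an unadjusted p under 0.05. Over all kept probes 0.0657% were called in this comparison. Apart from Cldn5 the differences of the genes were small, with the largest 0.06 log2 for Cldn2, whose 95% interval ran from -0.07 to 0.20. Most claudins were not detected in the hearts of either genotype, so a difference could be measured there only for Cldn5 and, near the detection limit, for Cldn7 and Cldn10.

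Cldn5 differed by -0.57 ± 0.23 log2 between KO/HT and WT/HT, with a 95% interval from -1.07 to -0.06 and an adjusted p of 0.56 (limma). The difference came from 2 of the 3 knockout hearts. Replicates 2 and 3, at 8.72 and 9.12, lay below all wildtype hearts, and replicate 1, at 9.95, lay within their range. Replicate 1 is also the heart that carried Eif2s3y and no detected Xist. Without it the difference was -0.91 log2 and passed (adjusted p = 0.037), and without replicates 1 and 3 together it was -1.11 log2 (adjusted p = 0.018). The latter rests on 1 knockout heart, the lowest, with the spread taken from the other groups. Without KO/HT replicate 2 it was -0.30 log2 (adjusted p = 0.64). The part of sex in this difference was not tested, because no wildtype heart carried Eif2s3y.

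The endothelial markers were set beside Cldn5 because it is best known from endothelial cells. Which cells of these hearts made the Cldn5 RNA was not measured. None of the 13 kept markers was called between the heart groups, and 10 were lower and 3 higher in KO/HT, with a median of -0.08 log2. Their median level was 9.68 to 9.87 in WT/HT and 9.56 to 9.78 in KO/HT, and their summed linear signal was 13518 to 14088 in WT/HT and 11646 to 13576 in KO/HT. The lowest summed signal was in KO/HT replicate 1, the array with the highest knockout level of Cldn5. The largest negative difference among the markers was that of Flt1, a receptor of vascular growth factors, at -0.52 log2 (adjusted p = 0.076), which was lower in all 3 knockout hearts than in any wildtype heart. Another 4 of the 17 listed markers were not detected on any array. The part of the endothelial cells in the Cldn5 value was not tested.

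**Figure D3:**
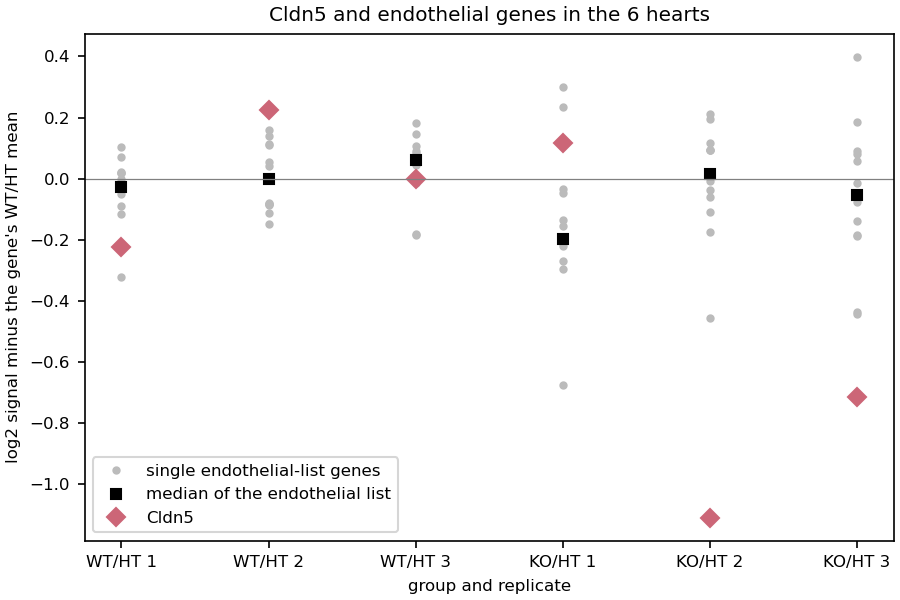
Cldn5 (red diamonds), the 13 kept endothelial marker genes (grey) and their median (black squares) in the 6 hearts, each as log2 signal minus that gene's own WT/HT mean. Cldn5 lies below all grey points in KO/HT replicates 2 and 3 and not in replicate 1, where the median of the markers is lowest.

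Between genotypes within the kidneys, 0 of the 9 claudin genes passed and 1, Cldn1, had an unadjusted p under 0.05, where 0.546% of all kept probes were called. Cldn1 was 0.29 ± 0.10 log2 higher in KO/KID (adjusted p = 0.33, limma), with an interval from 0.06 to 0.52. KO/KID replicate 2, at 7.69, was the highest kidney, and the groups overlapped. Without that array the difference was 0.16 log2. The intervals of most other brightest probes were narrow: -0.11 to 0.15 log2 for Cldn2, -0.13 to 0.31 for Cldn10, -0.23 to 0.15 for Cldn4, -0.15 to 0.21 for Cldn16 and -0.27 to 0.05 for Cldn19. Cldn5, with -0.10 log2, had the widest interval, from -0.61 to 0.40, since the fit holds 1 spread for all 4 groups and the knockout hearts varied most.

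The probes of Cldn10 and Cldn2 did not give 1 answer in the kidneys. Cldn10 probe 3 read 8.58, 8.57 and 8.65 in WT/KID and 8.95, 9.49 and 8.87 in KO/KID, so the groups did not overlap. The kidney groups of probe 1 did not overlap either, and the share of all kept probes without overlap was not computed. The difference of probe 3 was 0.51 ± 0.12 log2 (adjusted p = 0.11, limma), the largest in size among the 14 kept probes of the members in the kidneys. Without KO/KID replicate 2 it was 0.31 log2. Cldn10 probe 4 read 8.38, 8.15 and 8.66 in WT/KID and 8.54, 8.90 and 8.57 in KO/KID, a difference of 0.27 ± 0.12 log2 (adjusted p = 0.44) that was 0.15 log2 without WT/KID replicate 2. Probe 2 differed by 0.17 ± 0.09 log2 and probe 1, the brightest, by 0.09 ± 0.10 log2 (adjusted p = 0.56 and 0.88), and the former was 0.08 log2 without KO/KID replicate 2. The same order held for Cldn2, where the second probe read 10.75, 10.55 and 11.04 in WT/KID and 10.96, 11.24 and 11.10 in KO/KID. Its difference was 0.32 ± 0.11 log2 (adjusted p = 0.28) against 0.02 ± 0.06 log2 for the brightest, and it was 0.21 log2 without WT/KID replicate 2. All 6 probes of these genes had a higher mean in KO/KID, probe 1 of either gene by the least, and none passed. KO/KID replicate 2 was the highest kidney for 4 of the 6 probes.

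**Figure D4:**
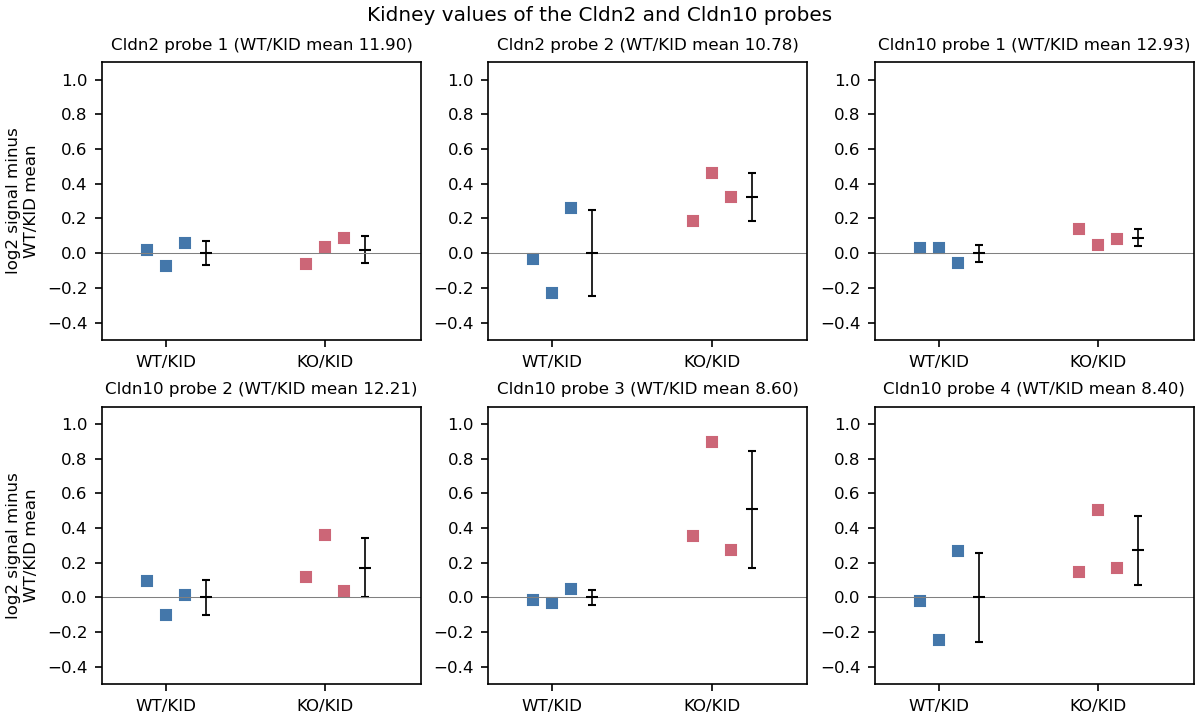
The 2 kept Cldn2 probes and the 4 kept Cldn10 probes in the kidneys, as log2 signal minus the probe's own WT/KID mean (given above each panel), with the group mean and SD (n = 3) in black. Cldn2 probe 2 and Cldn10 probes 3 and 4 sit 0.27 to 0.51 higher in KO/KID, and probe 1 of the 2 genes 0.02 and 0.09 higher.

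Scaling bears on these kidney values. When arrays were only centred on their medians, with no quantile normalization, the median of all kept probes itself moved by 0.12 log2 between KO/KID and WT/KID. On that scale 12.9% of all kept probes were called, 2455 higher and 89 lower. Cldn1 then differed by 0.49 log2 and passed (adjusted p = 0.021), which is 0.37 log2 beyond that shift. Cldn10 probes 2, 3 and 4 and the second Cldn2 probe passed too, at 0.22, 0.63, 0.40 and 0.39 log2 beyond the shift. These p-values test a difference from 0, not from the shift. Without WT/KID replicate 3 the second Cldn2 probe passed on the main scale as well, at 0.45 log2 (adjusted p = 0.044).

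**Figure D5:**
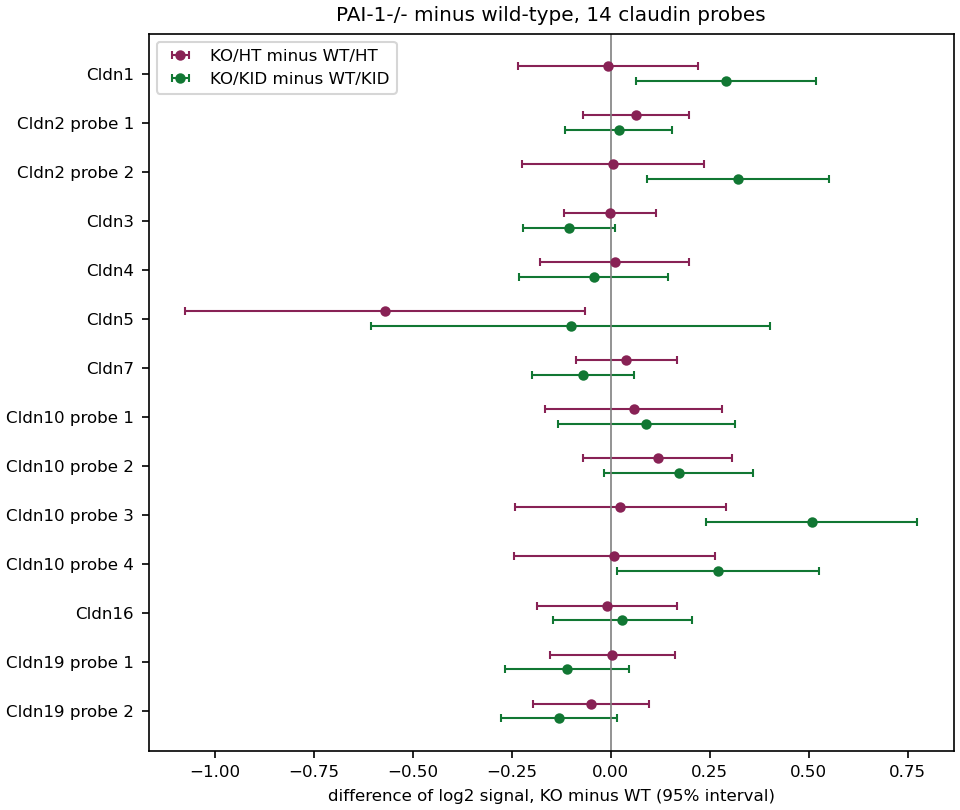
Difference of log2 signal between PAI-1 knockout and wildtype mice with its 95% interval for the 14 kept claudin probes, in hearts (purple) and kidneys (green). Cldn5 in the hearts lies at -0.57 and Cldn10 probe 3 in the kidneys at 0.51, and no probe passed after adjustment over all kept probes.

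The genotype difference was also compared between organs, as the difference in hearts minus that in kidneys. None of the 9 genes passed, and 0 had an unadjusted p under 0.05, where 0.101% of all kept probes were called. Cldn5 gave -0.47 ± 0.33 log2 (adjusted p = 0.71, limma), with an interval from -1.18 to 0.25, and Cldn1 gave -0.30 ± 0.15 log2 (adjusted p = 0.59). A smaller Cldn5 gap between organs in the knockout mice was therefore not shown. Cldn10 probe 3 gave -0.48 ± 0.17 log2 (adjusted p = 0.45, limma).

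Other claudins served as the nearest comparison. Of 23 listed, 13 had a probe and 7 were kept. In wildtype mice 4 of the 7 were lower and 3 higher in the hearts, with a median of -0.30 log2. Over all kept probes 31.4% were lower and 35.9% higher, so nothing particular to the other claudins is read from these counts. Cldn12, which unlike most claudins lacks the tail that binds ZO proteins, was -1.60 log2 lower (adjusted p = 2.1e-08), and Cldnd1, a more distant relative, was 0.95 log2 higher (adjusted p = 3.6e-06). None of the 7 passed between genotypes in either organ on the scale used here. Cldn15, a cation pore best known from the small intestine, came closest and is named after its values were seen. Its brighter probe read 8.37, 8.46 and 8.66 in WT/KID and 7.85, 7.69 and 7.86 in KO/KID, with groups that did not overlap. The difference was -0.70 ± 0.16 log2 (adjusted p = 0.082, limma), and the hearts differed by -0.46 ± 0.16 log2 (adjusted p = 0.46) with overlapping groups. The kidney difference of Cldn15 passed under median centring (-0.52 log2, adjusted p = 0.036), in a fit of the kidneys alone (adjusted p = 0.043) and without WT/HT replicate 1 or 2 (adjusted p = 0.047 and 0.041). Over all alternatives its adjusted p ran from 0.036 to 0.29. The dimmer Cldn15 probe differed by -0.02 log2 in either organ.

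Proteins that hold claudins at the junction were listed too, such as occludin, the ZO scaffolds and the polarity complexes. Of 24 kept junction partners, 6 were higher and 9 lower in the wildtype hearts, with a median of -0.09 log2 and a range from -2.76 to 2.05 log2. The largest fall among its genes with the smallest adjusted p was that of Cgnl1, coding for paracingulin, at -2.76 log2 (adjusted p = 2.2e-11). Of 15 kept regulators of claudins, 6 were higher and 7 lower in the wildtype hearts. Over all kept probes 35.9% were higher and 31.4% lower there, so nothing particular to either list is read from these counts. Prss8, a membrane-bound protease of tight epithelia, was undetected in the hearts and at least 47.5-fold higher in the wildtype kidneys. Its fitted difference was -5.71 log2 (adjusted p = 4.6e-15, limma). Zeb1, a repressor of epithelial genes, was 2.11 log2 higher in the wildtype hearts. No gene of either list passed between genotypes in either organ. Among the segment markers, all 10 kept proximal tubule genes were lower in the wildtype hearts, with a median of -5.86 log2. Their median level in WT/HT was 6.50 to 6.60, below the lowest detected signal of those arrays. For at least part of them the filter thus largely set this direction. In KO/KID against WT/KID 0 proximal tubule, thick limb or endothelial markers passed, and 1 of 12 collecting duct markers did, Foxi1, a factor of the acid-handling intercalated cells, at 0.27 log2 (adjusted p = 0.039).

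For each kept claudin the 2 genes outside the family with the closest profile over the 12 arrays were found by the root mean square difference of log2 values, each gene centred on its own mean. For Cldn2 they were Cyp7b1 at 0.10 and Grb7 at 0.12 log2, and for Cldn10 Prepl at 0.15 and Ttc36 at 0.16. Cldn16 lay closest to Fam107b and Gnpda1, both at 0.09. Cldn19 lay closest to Esrp1 at 0.06, a splicing factor of epithelial cells, and to Anks3 at 0.07. Cldn4 lay closest to Bmp7 at 0.09, a growth factor of the kidney tubule, and to Pls1 at 0.10. The distance was larger for Cldn5, whose closest genes were Decr1 at 0.25, an enzyme of fatty acid oxidation in mitochondria, and Ndufs5-ps at 0.26. Neither is an endothelial marker. The profiles of Cldn1, with Gm11992 and Cachd1 at 0.05 and 0.07, of Cldn3, with Rhpn1 and Gm6548 at 0.06 and 0.07, and of Cldn7, with Kank4 and Vwa5b2 at 0.04 and 0.05, span little signal, so many genes lie near them. These distances mostly reflect the step between organs, which the 12 arrays share.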

How the data were processed

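The authors deposited, for 12 Illumina mouse bead arrays, a linear intensity per probe that is not normalized and a detection p-value for each, with no account here of how that p was reached. A second deposited table holds the authors' normalized intensity values, made with lumi and quantile normalization per the methods. Here the signals of 45281 probes were quantile normalized over the 12 arrays and taken to log2. A probe was kept if 1 array or more had a detection p-value below 0.01. Symbols came from the platform annotation and were updated by Entrez identifier. A gene took its kept probe with the highest mean.

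One limma model (limma 3.58.1, R 4.3.3) fitted the 4 group means, leaving 8 residual degrees of freedom beside a prior of 3.91. Tests were two-sided. Benjamini-Hochberg adjustment covered the 19780 kept probes, and an adjusted p below 0.05 was a call. The fit was tested on simulated data. A check of the targeted gene is not reported here. Bead signals hold no molecule counts, and the 3 arrays per group set the precision. The members and the gene lists were chosen with earlier results of these data known. The text names all members, up to 3 genes of each list with the smallest adjusted p between wildtype organs, any junction gene that passed between genotypes (0 did) and the 2 closest profiles per member. Cldn15, Flt1 and Foxi1 were named after their values were seen. Promoter sequences are those of RefSeq, build GRCm38.p6, which holds 12 windows for 9 of the members.

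Alternatives of the values were neqc (offset 16), median centring in place of quantile normalization, and the authors' normalized values. Alternatives of the filter were detection at 0.05 in 1 array or at 0.01 in 3 arrays, and no filter. Those of the fit were just the groups in question, a replicate block, a random effect for genotype with replicate number, and trend and robust moderation. The average over a gene's kept probes and dropping each array in turn were also tried. Leaving out KO/HT replicates 1 and 3 together was added after the data were seen.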

Additional observations from a re-analysis of the deposited data

How the results depend on the processing

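Counts of claudin genes that passed were the same under every alternative except those named here. In KO/HT against WT/HT the count was 0 to 1 when 1 array was left out, and the 1 was Cldn5 at -0.91 log2 without KO/HT replicate 1. It was also 1 without KO/HT replicates 1 and 3 together, an alternative added after the data were seen that leaves 1 KO/HT array, assumed to vary like the other groups. The same alternative left 8 of 9 genes in knockout hearts against knockout kidneys, with Cldn7 lost at -0.17 log2. In KO/KID against WT/KID the count was 1, Cldn1, under median centring, which moved the median of all kept probes by 0.12 log2 and gave 2455 higher and 89 lower probes against 48 and 60 after quantile normalization. Centring also moved the split between organs, to 4692 higher and 7804 lower in the wildtype hearts, against 7106 and 6217, and to 3886 higher and 9214 lower in the knockout hearts, against 6901 and 5981. No value that passed in either fit reversed. Among claudin values that passed in neither, 26 of 329 in the hearts, 12 of 325 in the kidneys and 18 of 317 in the interaction changed sign. Replicate numbers did not pair the arrays: the deviations of arrays with the same number correlated at -0.20 to 0.21. With the replicate block 0, 0 and 0 claudin genes passed in the hearts, the kidneys and the interaction, and 9 and 9 between organs, while 8 and 82 of all probes passed between genotypes in hearts and kidneys, against 13 and 108. A random block of genotype with replicate number, meant to stand for the mouse, had a consensus correlation of 0.01. The sex transcripts differed within most pairs of this block, so it does not measure an effect of the animal. With 3 arrays per group, and with 8 of the 9 genes at or near background in the hearts, a genotype difference in the hearts could be measured well for Cldn5 only.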
